A study of Mus musculus with 24 samples.

Results

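The genes of synaptic vesicles and of SNARE-driven membrane fusion were followed over brain, testis and spleen of Smc6 mutant and control mice. They were chosen by symbol alone, as every array probe annotated to a numbered synaptotagmin (Syt), synapsin (Syn), VAMP, SNAP, syntaxin (Stx), syntaxin-binding protein (Stxbp), SV2 or complexin (Cplx), or to Syp, Nsf, Napa or Napb. This gave 88 of the 25697 probes on the array, for 60 of 16593 genes, of which 25 were classed as neuronal and 34 as general by textbook knowledge, with Stxbp5l left unclassed. Homozygous mutant and control animals were male, of mixed C57BL/6J-129ola-Fvb background, and each array held the RNA of 1 animal. Brains were taken at 19 weeks from 4 mutants and 4 wild-type controls. Testes and spleens were taken at 12 weeks from a separate set of 4 mutants and 4 controls, both organs from each animal. Of those 4 controls, replicates 1 and 2 were wild type and 3 and 4 heterozygous by the mouse identifiers, although all 4 carry the genotype label wildtype. What the mutation does to the Smc6 transcript is not given in the sources used here, and the single Smc6 probe differed by at most 0.19 on the log2 scale (spleen, SE 0.16).

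SNARE proteins are short membrane-anchored coils that zip together and pull a vesicle against its target membrane until both fuse. Vesicle SNAREs of the VAMP family pair with target SNAREs of the syntaxin and SNAP families, syntaxin-binding and complexin proteins hold or release the assembly, synaptotagmins couple it to calcium, and the ATPase NSF with its SNAP adaptors takes the spent complexes apart. In nerve terminals a dedicated set of these proteins releases neurotransmitter within a fraction of a millisecond, while every cell uses relatives of them between endoplasmic reticulum, Golgi, endosomes, lysosomes and the cell surface. Secretion of blood cell granules and the acrosome reaction of sperm use the same machinery.

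The promoters of 4 members are printed here because their transcripts were highest in different tissues: Syn1 and Syp in brain, Stx17 in testis and Vamp8 in spleen. Each runs from 250 bases before to 50 bases after the annotated transcript start, written 5′ to 3′ on the gene's strand, from RefSeq on GRCm38.p6. Syn1 is at chrX:20920869-20921168 (minus strand), Syp at chrX:7638330-7638629 (plus), Stx17 at chr4:48124669-48124968 (plus) and Vamp8 at chr6:72390618-72390917 (minus).
Syn1: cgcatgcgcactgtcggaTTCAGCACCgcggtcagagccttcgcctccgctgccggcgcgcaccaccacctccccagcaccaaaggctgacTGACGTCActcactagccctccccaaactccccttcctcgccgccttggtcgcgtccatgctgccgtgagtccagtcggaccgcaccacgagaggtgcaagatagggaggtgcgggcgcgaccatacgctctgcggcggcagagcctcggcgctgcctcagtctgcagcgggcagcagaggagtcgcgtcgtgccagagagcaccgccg
Syp: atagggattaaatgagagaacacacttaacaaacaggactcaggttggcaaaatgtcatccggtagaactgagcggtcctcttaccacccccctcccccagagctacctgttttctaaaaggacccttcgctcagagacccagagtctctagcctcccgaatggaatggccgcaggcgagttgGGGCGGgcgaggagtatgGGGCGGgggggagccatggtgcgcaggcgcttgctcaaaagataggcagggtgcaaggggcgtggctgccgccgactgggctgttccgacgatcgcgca
Stx17: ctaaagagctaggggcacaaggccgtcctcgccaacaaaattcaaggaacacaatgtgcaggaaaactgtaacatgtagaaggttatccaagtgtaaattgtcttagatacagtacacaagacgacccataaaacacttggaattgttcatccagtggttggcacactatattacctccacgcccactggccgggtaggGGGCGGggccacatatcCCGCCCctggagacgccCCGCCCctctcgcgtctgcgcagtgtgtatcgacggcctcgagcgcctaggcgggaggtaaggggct
Vamp8: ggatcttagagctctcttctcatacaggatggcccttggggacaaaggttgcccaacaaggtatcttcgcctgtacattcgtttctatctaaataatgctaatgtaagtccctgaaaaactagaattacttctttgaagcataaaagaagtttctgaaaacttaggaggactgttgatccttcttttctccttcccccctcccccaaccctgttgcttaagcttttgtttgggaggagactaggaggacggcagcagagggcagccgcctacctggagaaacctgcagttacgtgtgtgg
Capitals mark every match, on either strand, to 4 strings of letters. These were TTCAGCACC, part of the RE1 element through which REST silences neuronal genes outside neurons, TGACGTCA, the full cAMP response element, GGGCGG, the GC box, and TATAAA. Syn1 held TTCAGCACC from base -232 and TGACGTCA from base -159 relative to the start, Syp held GGGCGG at -67 and -49, and Stx17 held the GC box at -51, -34 and -17, while Vamp8 held none of the 4. Of the 60 member genes 48 had a promoter in the table. TTCAGCACC was found in 1 of those 48, Syn1, and in 0.433% of the 27025 promoters tabulated for all genes. TGACGTCA was in 3 members (Napa, Stxbp3, Syn1) and in 2.03% of all promoters, GGGCGG in 34 members and 38.2%, and TATAAA in 3 members (Stx2, Stx3, Sv2b) and 15.7%. The printed Syn1 promoter was 68.3% G and C with 33 CpG, and that of Vamp8 46.7% with 5 CpG. A match describes the letters only.

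Levels were deposited as intensity values on 24 bead arrays, and are given here as log2 intensity after background correction and quantile normalization. A probe counted as detected on an array at a detection p under 0.05, and was tested in a tissue when 4 or more of its 8 arrays detected it. Between 13784 and 14234 probes were detected on a brain array, 12708 to 13344 on a testis array and 12049 to 13134 on a spleen array. The tissues matched their labels: the summed intensity of neuron markers lay between 39627 and 42572 on brain arrays, against at most 1416 in testis and 2667 in spleen, germ cell markers were highest in testis and lymphocyte markers in spleen. Markers of neighbouring organs were measured as well. The median of pancreas markers was 10.48 and 9.54 in spleens of mutants 1 and 2 against 4.76 and 5.17 in mutants 3 and 4 and 4.54 to 4.99 in controls, and 7.78 in the testis of mutant 1 against 4.70 to 5.78 in the other 7 testes. Pituitary markers ranged from 4.42 to 10.44 over mutant brains and from 4.30 to 10.93 over control brains. All 7 choroid plexus markers had higher means in mutant brains, their median being 6.92 to 7.28 there and 6.63 to 6.95 in control brains. Mutant brain arrays were dimmer before normalization, with an upper quartile of 152 ± 7.24 against 177 ± 8.27 in controls (linear intensity, SD, n = 4 each).

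Of the 88 member probes, 62 passed the detection filter in brain (44 genes), 42 in testis (32 genes) and 45 in spleen (34 genes), and 49 genes passed in at least 1 tissue. The other 11 genes did not pass in any of the 3, though Syt7 was detected on 3 brain arrays at 1 probe and on 1 testis array at another, Syn3 on 2 brain arrays and Stxbp3 on 1 spleen array. Among the 11 is Snap25, the target SNARE of the synapse, whose only probe was detected on 0 of 24 arrays although neurons are known to carry abundant Snap25. No level of that gene can be given from it. The rest were the synapsin Syn3, the complexin Cplx3, the syntaxin Stx16, Stxbp3, Stxbp6 and the synaptotagmins Syt2, Syt7, Syt8, Syt10 and Syt14. Where a gene had several probes, the one with the highest mean over the 24 arrays stands for it below unless another is named.

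The first comparison asked where each member is expressed, in control animals, with limma over all 24 arrays and adjustment over 17438 probes. Of 67 member probes, 46 were higher in brain than in testis and 15 lower (68.7% and 22.4%, against 44.7% and 36.8% of all probes). Against spleen, 47 were higher in brain and 14 lower (70.1% and 20.9%, against 36.5% and 38.8% of all probes). Between testis and spleen 19 were higher in testis and 30 lower (28.4% and 44.8%, against 34.1% and 42.3% of all probes). With each tissue normalized on its own, that split was 23 higher and 24 lower, where the median of all probes was 0.11 (log2) in place of -0.09. The medians of all probes for brain minus testis and brain minus spleen, 0.13 and -0.04, then stood at 0.45 and 0.58, and those of the member probes, 1.66 and 0.99, at 2.24 and 1.98. Taking 1 probe per gene, brain was significantly highest for 31 of the 49 genes, against 27.6% of 11874 genes measured, testis for 5 (25.6% of all genes), spleen for 8 (27.4%) and no single tissue for 5. Of the 31, 19 came from the 20 neuronal members and 12 from the 28 general ones. The filter favours that outcome for a gene that passed it only through brain, as 7 neuronal and 3 general members did, of which Syt17 alone was not highest there. Among the genes detected in all 3 tissues, where the filter does not favour brain, brain was highest for 4 of 4 neuronal members and 10 of 20 general ones, against 24.4% of 6870 genes. Spleen was highest for 5 of these 25 members (32.2% of all genes), testis for 3 (22.7%) and none for 3 (20.7%). Brain differed from the other tissues in its animals and their age too, and these cannot be told apart from tissue. In whole organs fewer cells of a type and less RNA per cell cannot be told apart either.

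**Figure D1:**
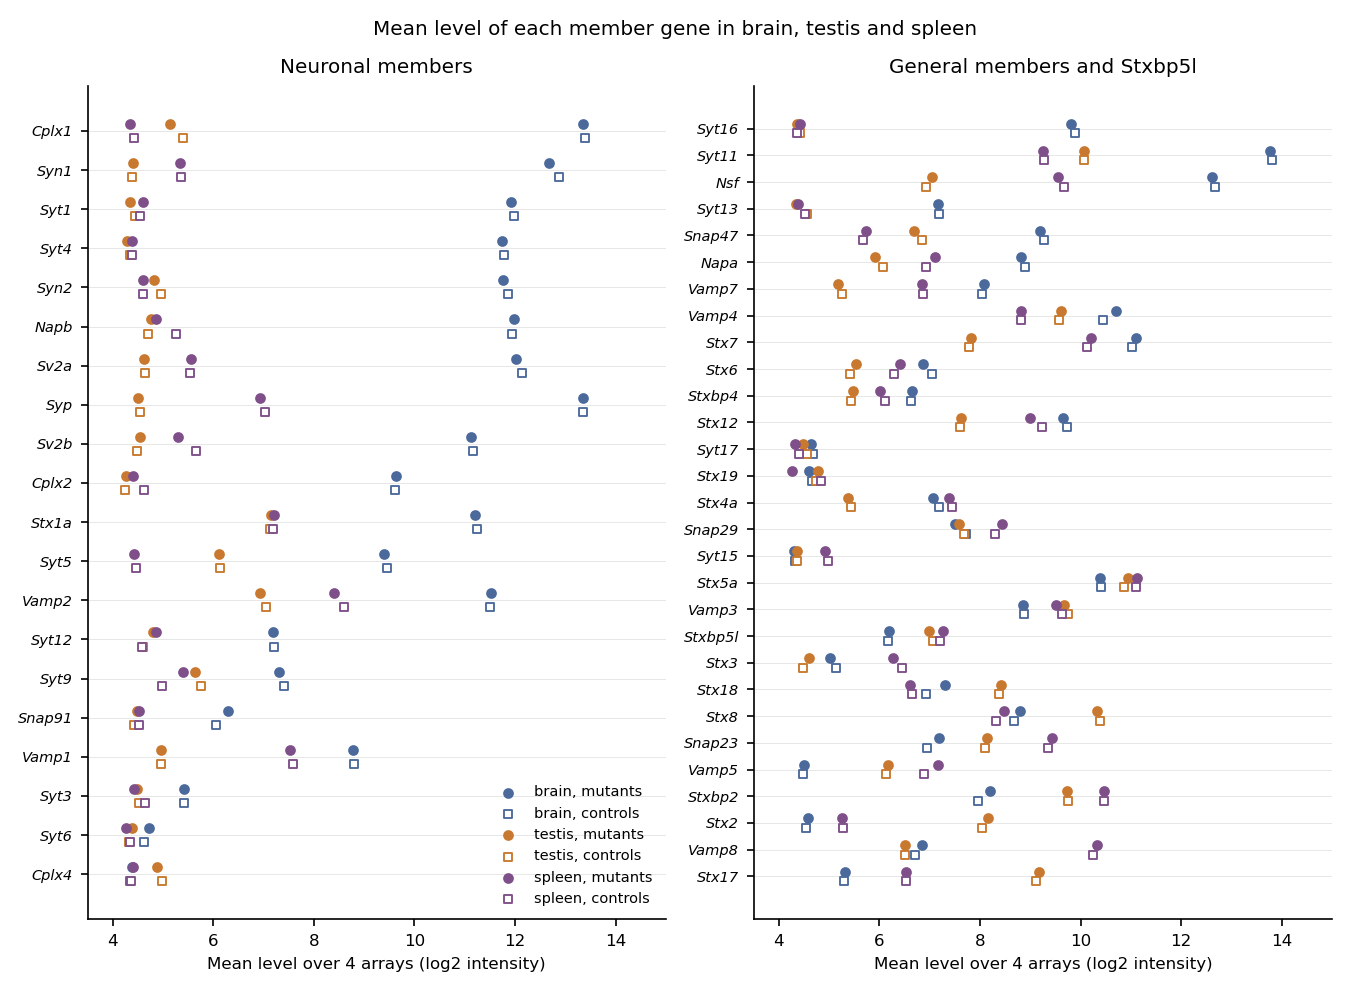
Mean log2 intensity of the 49 detected member genes (rows, 1 probe each, sorted by how far brain stands above the higher of the other tissues) over 4 arrays per group, with filled circles for mutants and open squares for controls in brain, testis and spleen. Brain symbols lie to the right for most neuronal members, the tissues mix more among general members, and mutant and control symbols lie close together throughout.

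The vesicle proteins were far higher in brain than in the other tissues. Syn1 encodes a synapsin, a phosphoprotein that tethers vesicles in the reserve pool. It read 12.70, 12.63, 12.75 and 12.62 in mutant brains and 12.80, 12.97, 12.80 and 12.94 in control brains, but 4.34 to 4.48 over all 8 testes and 4.81 to 5.81 over the 8 spleens. It was not detected in control testes, so brain exceeded testis at least 275-fold, and it exceeded spleen 183-fold (difference 7.51, SE 0.15, limma adjusted p = 1.1e-23). A bound of this kind sets brain against the dimmest detected probes of each array in the other tissue. Syp, synaptophysin, the most abundant membrane protein of synaptic vesicles, read 13.32, 13.42, 13.25 and 13.43 in mutant brains and 13.27, 13.32, 13.37 and 13.45 in control brains. In spleen it was lower but clearly detected, at 6.20, 7.09, 7.22 and 7.23 in mutants and 7.13, 7.01, 6.92 and 7.04 in controls, while testes lay between 4.34 and 4.68. Brain exceeded testis at least 383-fold and spleen 80.5-fold, and control testis lay at least 4.76-fold below control spleen (limma adjusted p = 6.0e-14). Mutant spleen 1 was the lowest of the spleens, and that organ was one of those with pancreas transcripts, whose part in the value was not tested.

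Syn2, the vesicle glycoproteins Sv2a and Sv2b, and the measured SNARE partners of the synapse were also highest in brain. Syn2 was at least 117-fold higher in brain than in testis, where 3 of 4 control arrays detected it, and at least 125-fold higher than in spleen, where 1 did. For these bounds, and for other members detected on some arrays of the lower tissue, each array of that tissue entered at no less than its dimmest detected probe. Sv2a, the binding site of the antiepileptic drug levetiracetam, was at least 166-fold above testis and 97.5-fold above spleen, and Sv2b at least 83.8-fold and 45.3-fold. Both were also higher in spleen than in testis, Sv2a at least 1.70-fold and Sv2b at least 1.85-fold. Every brain value of these 3 genes, between 11.01 and 12.26, lay above every testis and spleen value, which reached 5.89 at most.

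The SNAREs known for transmitter release were less confined to brain. Vamp2, synaptobrevin, the main vesicle SNARE of the synapse, read 11.59, 11.57, 11.49 and 11.46 in mutant brains and 11.56, 11.35, 11.53 and 11.56 in control brains. Testes had 6.83 to 7.03 in mutants and 6.98 to 7.17 in controls, and spleens 8.22 to 8.60 in mutants and 8.33 to 8.76 in controls, all clearly detected. Brain was 22.0-fold above testis and 7.52-fold above spleen, and no array of one tissue reached the range of another. Stx1a, the syntaxin that pairs with it, was 17.4-fold higher in brain than in testis and 16.6-fold higher than in spleen, with testis and spleen not differing beyond their spread (-0.07, SE 0.11, limma adjusted p = 0.563). Vamp1, the second synaptobrevin, was 14.2-fold above testis but 2.30-fold above spleen at its brightest probe. A second probe of Vamp1, ILMN_2480542, was at least 12.3-fold above testis, where no array detected it, and 3.07-fold above spleen, while ILMN_3060333 was near background everywhere. The last, ILMN_3137767, was dim too, at 4.92 in control brains, where 3 arrays detected it, and was detected on 0 control testes or spleens.

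**Figure D2:**
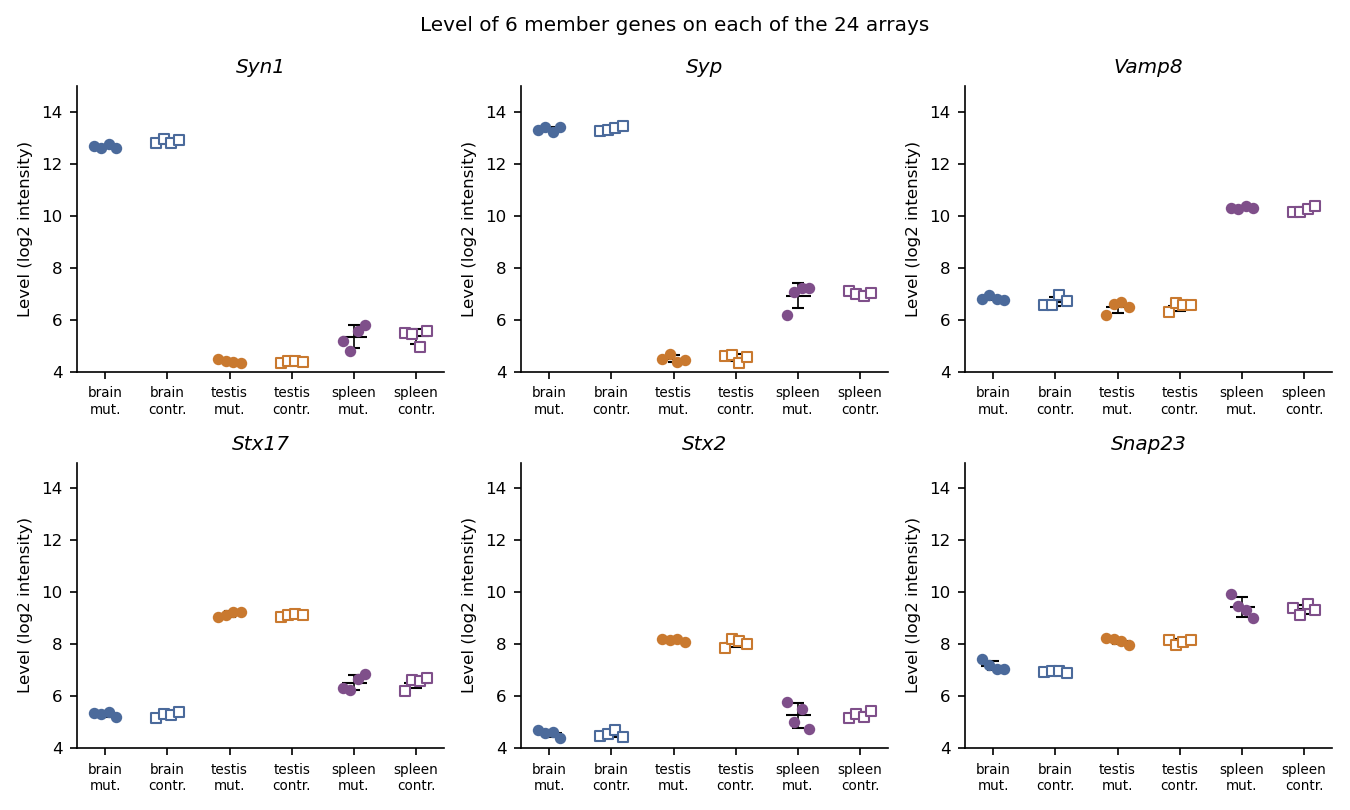
Log2 intensity of 6 member genes on each of the 24 arrays, with mutants (filled circles) left of controls (open squares) in brain, testis and spleen, and bars for the mean and SD of 4 arrays. Syn1 and Syp stand high in brain, Vamp8 and Snap23 in spleen, and Stx17 and Stx2 in testis. Mutants and controls lie close together in each tissue, though in brain those of Syn1 and of Snap23 do not overlap.

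The regulators of the SNARE complex differed in where they were highest. Cplx1, a complexin that clamps the partly assembled complex until calcium arrives, read 13.30, 13.37, 13.42 and 13.34 in mutant brains and 13.42, 13.36, 13.32 and 13.47 in control brains. It read 5.04 to 5.23 in mutant testes and 5.30 to 5.57 in control testes, and 4.28 to 4.63 in all spleens, where no control array detected it. The fold between brain and testis was 256, and that between brain and spleen at least 365. Cplx2 was at least 28.8-fold above testis. Cplx4, known from the ribbon synapses of the retina, was the 1 neuronal member highest in testis, but only just above background there, at 4.74 to 4.96 in mutants and 4.78 to 5.16 in controls, at least 1.25-fold above brain. Stxbp2, or Munc18-2, which serves granule release in cytotoxic lymphocytes, was lowest in brain, 5.62-fold below spleen and 3.42-fold below testis. Its difference between testis and spleen (-0.72) changed sign when each tissue was normalized on its own. Stxbp4 was 2.31-fold higher in brain than in testis and 1.44-fold higher than in spleen. Stxbp5l, a tomosyn, was lower in brain than in testis (-0.89) and than in spleen (-1.04), but the spleen difference changed sign under the same normalization.

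Synaptotagmins differed widely in how far brain stood above the other tissues. Syt1, the calcium sensor of fast release, lay between 11.83 and 12.07 on all 8 brain arrays and was not detected in control testes or spleens, at least 148-fold and 138-fold lower there. Syt4 was at least 129-fold higher in brain than in testis and 120-fold higher than in spleen, and Syt16, classed as general, at least 34.7-fold and 32.2-fold. Syt5 was 9.97-fold above testis and at least 23.9-fold above spleen, and testis exceeded spleen at least 2.40-fold. Syt11, a synaptotagmin that does not bind calcium, was detected everywhere at its brightest probe, with brain 13.3-fold above testis and 23.2-fold above spleen. Its probes ILMN_3063644 and ILMN_3141334 were also brightest in brain, at 7.61 and 7.16 in controls. Both were detected on 0 spleen arrays, and ILMN_3063644 on 2 testis arrays. Syt9 was 3.16-fold above testis and at least 5.01-fold above spleen, where 3 control arrays detected it, Syt12 at least 5.38-fold and 5.00-fold, and Syt13 at least 5.23-fold above testis, where 1 control array detected it, and at least 4.92-fold above spleen. Syt3 exceeded testis at least 1.57-fold and spleen at least 1.44-fold, with 1 of 4 control arrays detecting it in each. Syt6, detected on 2 of 4 control brains and on 0 testis or spleen arrays, allowed no fold against them, and its brain minus spleen difference changed sign with median scaling. Syt15 was detected in spleen alone, on 3 of 4 control arrays, and Syt17, at 4.56 to 4.84 over all 8 brains, was detected on 2 of 4 control brains and on 0 testis or spleen arrays, and allowed no fold either.

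The ATPase Nsf and the general adaptor Napa are needed in every cell, and both were nevertheless highest in brain, as was Napb. Nsf, the ATPase, read 12.47 to 12.69 in mutant brains and 12.58 to 12.73 in control brains, 6.76 to 7.30 and 6.76 to 7.01 in mutant and control testes, and 9.46 to 9.77 over all spleens. These ranges put brain 53.2-fold above testis and 7.93-fold above spleen, and testis 6.71-fold below spleen, with no overlap between tissues. Napb, the adaptor form known from brain, was at least 139-fold above testis, where 1 control array detected it, and 103-fold above spleen. Napa, the general adaptor, was 7.11-fold and 3.95-fold above them. Its probes differed in sign between testis and spleen, at -0.85 and -0.95 (log2) for ILMN_2865822 and ILMN_2623531 and 0.70 for ILMN_1216812. Snap91, which the name rule brings in although it encodes AP180, a clathrin assembly protein of vesicle recycling and no SNARE, was at least 2.42-fold above testis and 2.25-fold above spleen.

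Among the SNAREs of general trafficking, several endosomal ones were also highest in brain. Stx7, of late endosomes, was 9.41-fold higher in brain than in testis and 1.84-fold higher than in spleen. Stx12, of early endosomes, was 4.35-fold and 1.42-fold higher, Stx6, of the trans-Golgi network, 3.08-fold and 1.69-fold, Vamp7, of lysosomes, 6.86-fold and 2.25-fold, and Snap47 5.38-fold and 12.1-fold. Vamp4, which cycles between the trans-Golgi network and endosomes, was 1.84-fold above testis and 3.09-fold above spleen.

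Testis was highest for the syntaxins Stx17, Stx2, Stx18 and Stx8. Stx17, which fuses autophagosomes with lysosomes, read 9.04, 9.15, 9.26 and 9.25 in mutant testes and 9.04, 9.12, 9.16 and 9.13 in control testes. It read 6.21 to 6.87 over all spleens and 5.17 to 5.41 over all brains. The 3 tissues did not overlap, brain lying 14.0-fold and spleen 5.98-fold below testis. Stx2, or epimorphin, whose loss arrests spermatogenesis in mice, read 8.20, 8.16, 8.21 and 8.10 in mutant testes and 7.86, 8.19, 8.11 and 8.02 in control testes, against 4.72 to 5.80 in spleens and 4.39 to 4.72 in brains, where 1 of 4 control arrays detected it. Testis exceeded brain at least 10.4-fold and spleen 6.82-fold. Stx18, which acts in traffic back to the endoplasmic reticulum, was 2.72-fold below testis in brain and 3.31-fold lower in spleen than in testis. Stx8, a late endosomal syntaxin, was 3.27-fold lower in brain and 4.19-fold lower in spleen than in testis at its brightest probe. Probes ILMN_2710544 and ILMN_2754479 of Stx8 gave the same direction for brain against testis (-1.37 and -0.87, log2), but ILMN_3064056 gave 1.92, so the pattern of Stx8 is uncertain.

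Spleen was highest for 8 members, Vamp8, Snap23, Vamp5, Stxbp2, Stx3, Stx5a, Snap29 and Syt15. Vamp8, or endobrevin, a vesicle SNARE of platelets, mast cells and exocrine glands, read 10.31, 10.27, 10.40 and 10.32 in mutant spleens and 10.17, 10.16, 10.26 and 10.39 in control spleens. Brains lay between 6.56 and 6.97 and testes between 6.18 and 6.70. Brain was 11.6-fold and testis 13.3-fold below spleen, while brain and testis did not differ beyond their spread at this probe (0.19, SE 0.11, limma adjusted p = 0.107). A second Vamp8 probe, ILMN_1219136, had brain at least 1.28-fold above testis, where 1 control array detected it (limma adjusted p = 0.0018). Snap23, the widely expressed relative of Snap25, was 5.28-fold lower in brain and 2.38-fold lower in testis than in spleen. Vamp5 was at least 4.68-fold lower in brain and 1.68-fold lower in testis. Stx3 was 2.48-fold lower in brain and at least 3.19-fold lower in testis. Stx5a, of the Golgi, and Snap29, of autophagosome fusion, had smaller differences, brain minus spleen being -0.70 and -0.58 (log2), and both changed sign when each tissue was normalized on its own. Snap29 did so with median scaling too, and the testis minus spleen difference of Stx5a (-0.23) changed sign under both. A second Stx5a probe, ILMN_1255725, had its highest control mean in testis, at 7.46 against 6.73 in spleen and 6.44 in brain. The order of tissues for Stx5a thus rests on the scaling and on the probe. Vamp3, or cellubrevin, was lower in brain than in testis (-0.86) and than in spleen (-0.74). The spleen difference again changed sign with each tissue normalized on its own. That of a second Vamp3 probe, ILMN_2881480, did not, at 7.13 in control brains against 8.88 in spleens and 9.21 in testes. Stx4a was lower in testis than in brain, 3.36-fold, and than in spleen, 4.06-fold, and Stx19 was near background everywhere.

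The second comparison asked whether these transcripts differed between Smc6 mutants and controls, separately in each tissue. Between mutants and controls 0 member probes passed the threshold of an adjusted p under 0.05 in brain, testis or spleen with limma. Over all probes 4 passed in brain, all higher (0.0285% of 14027), and 0 to 3 with any 1 array left out, while none passed in testis or spleen. At an unadjusted p under 0.05, 9 of 62 member probes (14.5%) were found in brain, against 11.8% of all brain probes. Of these 7 were higher, from 6 genes, and 2 lower (11.3% and 3.23%, against 6.37% and 5.46% of all probes). The share in testis was 1 of 42 (2.38%, against 4.78% of all probes) and in spleen 0 of 45 (against 1.74%). In brain the share in either direction lay near the background, with the higher share above it and the lower share below it. The shares in testis and spleen rest on 1 and 0 probes. Whether any of these shares departs from its background was not tested. The median difference of member probes was -0.02 in brain, between -0.29 and 0.49, where that of all probes was -0.01. In testis and in spleen the medians of members were -0.0009 and -0.0002 (log2). By class, the brain median was -0.03 for neuronal members (8 of 26 probes above 0) and -0.002 for general ones (17 of 35). In testis these were -0.09 (3 of 9) and 0.02 (18 of 32), and in spleen -0.05 (4 of 11) and 0.001 (17 of 33). Over all probes 6730 of 14027 lay above 0 in brain, 6585 of 13152 in testis and 6021 of 12449 in spleen. The gap between the classes was not tested. The 95% confidence interval lay within 1.5-fold in either direction for 60 of 62 member probes in brain, 42 of 42 in testis and 42 of 45 in spleen, against 95.6%, 96.8% and 82.5% of all probes. It lay within 2-fold for all member probes tested, against 99.8%, 99.7% and 98.6% of all probes.

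**Figure D3:**
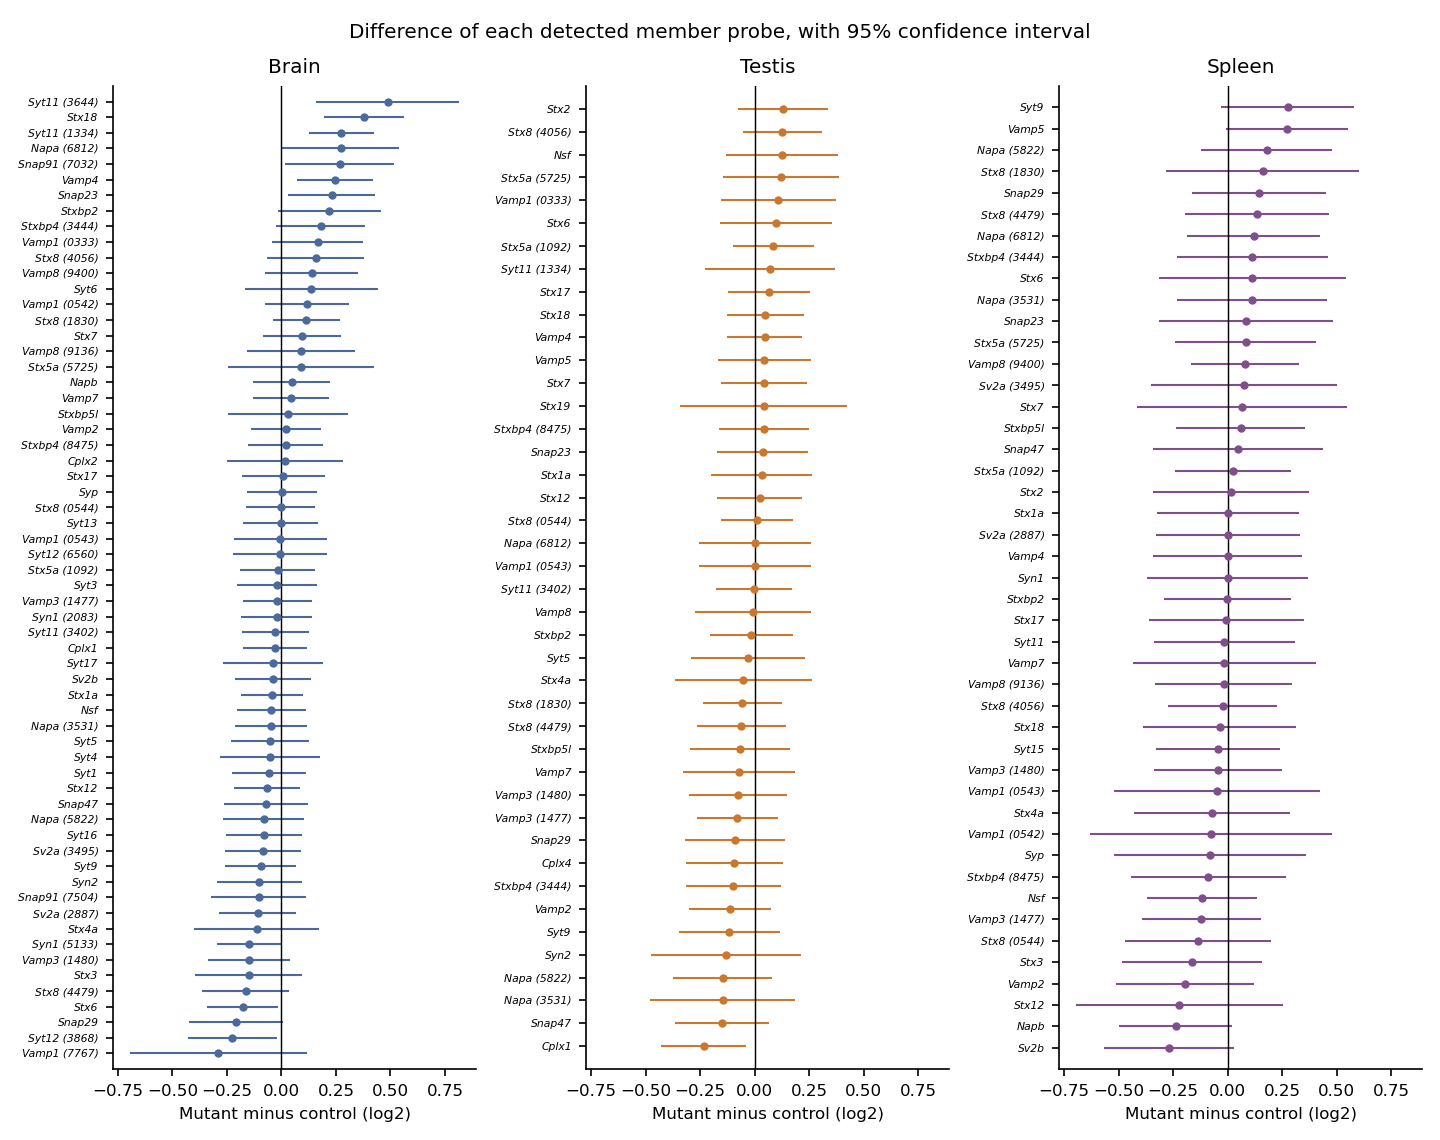
Mutant minus control difference (log2) of each detected member probe, with its 95% confidence interval from limma, for 62 probes in brain, 42 in testis and 45 in spleen, sorted by size (the last 4 digits of the probe number in brackets where a gene has several). Most intervals cross 0, the outermost brain probes being Syt11 and Stx18 on the higher side and a dim Vamp1 probe on the lower side, and spleen intervals are the widest.

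In brain 5 member probes had mutants and controls that did not overlap (8.06%, against 6.66% of all brain probes). In 4 the mutants were higher and in 1 lower (6.45% and 1.61%, against 3.51% and 3.15% of all probes). Stx18 read 7.87, 7.71, 7.89 and 7.77 in mutant brains and 7.39, 7.34, 7.37 and 7.62 in control brains, on the scale of the brain arrays alone. Every mutant lay above every control, by 0.38 on average (SE 0.08, 1.30-fold), with a limma adjusted p of 0.128. Vamp4 read 10.97, 11.08, 11.01 and 11.15 in mutants and 10.68, 10.78, 10.85 and 10.92 in controls, mutants being 0.24 higher (SE 0.08, limma adjusted p = 0.260). Snap23 read 7.92, 7.72, 7.55 and 7.56 in mutants and 7.43, 7.49, 7.49 and 7.41 in controls, 0.23 apart (SE 0.09, limma adjusted p = 0.338), with mutant 1 the highest. None of the 3 passed the threshold.

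Syt11 was read by 3 probes that did not give the same answer. Probe ILMN_3141334 had 7.93, 7.91, 8.00 and 7.93 in mutant brains and 7.66, 7.73, 7.69 and 7.57 in control brains, with no overlap and mutants 0.27 higher (SE 0.07, adjusted p from limma 0.159). Probe ILMN_3063644 gave 0.49 (SE 0.15, limma adjusted p = 0.244), with mutant 4 at 8.11 below the other mutants and inside the controls' range. The third, ILMN_1233402, gave -0.03 (SE 0.07). Which of them follows the gene cannot be told from these arrays.

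Syn1 was the member whose mutants all lay below the controls. Its probe ILMN_1235133 read 12.96, 12.91, 13.01 and 12.89 in mutant brains and 13.03, 13.15, 13.04 and 13.13 in control brains, which is -0.15 between the means (SE 0.07, limma adjusted p = 0.431), while a second Syn1 probe gave -0.02 (SE 0.07). Stx6 was at 7.29, 7.40, 7.30 and 7.49 in mutants and 7.46, 7.54, 7.61 and 7.57 in controls (-0.18, SE 0.07, limma adjusted p = 0.382), with mutant 4 above control 1. The dim Syt12 probe ILMN_2943868 gave -0.22 (SE 0.09), detected on 1 mutant and 4 control arrays, Snap29 gave -0.21 (SE 0.10) and the Stx8 probe ILMN_2754479 gave -0.17 (SE 0.09), all with overlapping groups. Probes of 1 gene also differed in sign for Napa (-0.08 to 0.27), Snap91 (-0.10 to 0.27), Stx8 (-0.17 to 0.16) and Vamp1 (-0.29 to 0.17). Some synaptic genes that stood out by tissue were close to level. The difference was 0.00 for Syp (interval -0.16 to 0.16), 0.02 for Vamp2 (-0.14 to 0.18), -0.03 for Cplx1 and -0.06 for Syt1. Among others, Sv2a gave -0.11 and -0.08 at its probes, Syn2 -0.10, Syt4 -0.05, Sv2b -0.04 and Napb 0.05, with intervals that crossed 0. Of the 26 neuronal member probes in brain, 8 lay above 0, and the median of all 26 was -0.03. The higher choroid plexus markers and the dimmer arrays moved with the mutant group in brain, and their part in these values was not tested. Mutant arrays had an upper quartile of at most 162 and control arrays of at least 169. A fit with array brightness as a covariate therefore separates brightness from genotype poorly. In that fit Stx18 stood at 0.40 (SE 0.19), Snap23 at 0.43 (SE 0.19), Vamp4 at 0.14 (SE 0.17) and Syn1 at -0.05 (SE 0.15). None of them passed the threshold.

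**Figure D4:**
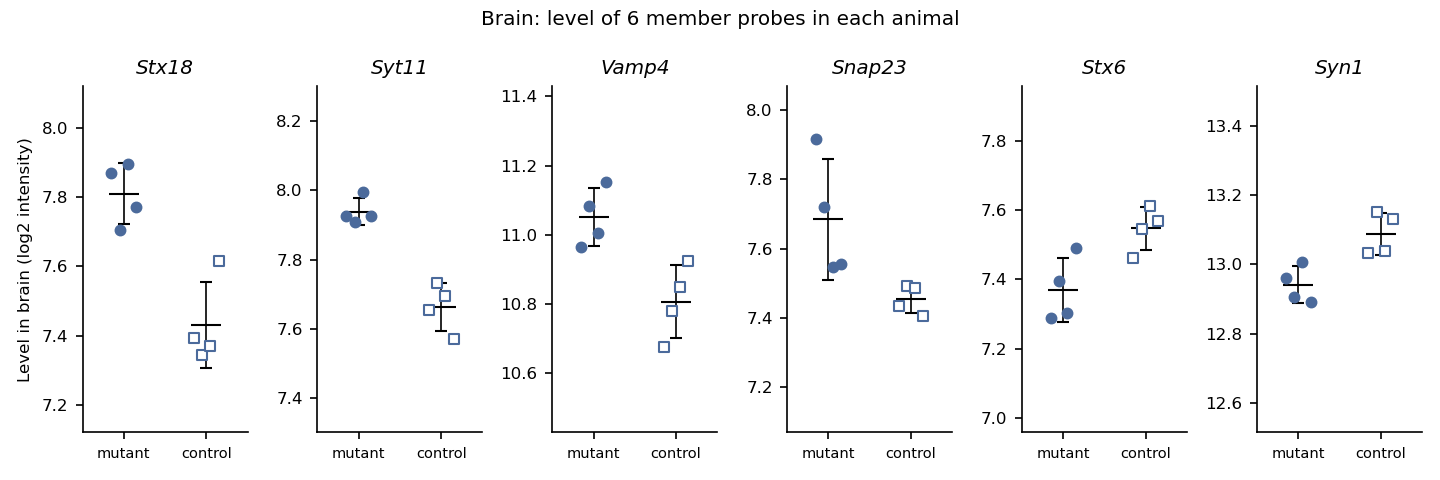
Log2 intensity of 6 member probes in each of the 4 mutant (filled circles, left) and 4 control brains (open squares, right), with mean and SD, on axes that each span 1 log2 unit. Stx18, Syt11 (probe ILMN_3141334), Vamp4 and Snap23 are higher in every mutant than in every control, Syn1 is lower, and Stx6 overlaps in 1 animal, yet all have limma adjusted p between 0.128 and 0.431.

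In testis Cplx1 was the member with the smallest p. It read 5.10, 5.16, 4.99 and 5.09 in mutant testes and 5.31, 5.49, 5.23 and 5.23 in control testes, on the scale of the testis arrays. All mutants lay below all controls (-0.23, SE 0.09, limma adjusted p = 1.00), and the level is close to background. It was the 1 member probe in testis without overlap (2.38%, against 2.71% of all testis probes). The other lower ones by smallest p were Snap47 (-0.15), Napa (-0.15), Vamp2 (-0.11) and Syt9 (-0.12), and the higher ones Stx8 by its discordant probe (0.13), Stx2 (0.13), Nsf (0.12) and both Stx5a probes (0.12 and 0.09). Their groups overlapped. The testis-high syntaxins Stx17 and Stx18 differed by 0.07 (interval -0.12 to 0.25) and 0.05 (-0.13 to 0.23).

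In spleen Napb was the 1 member without overlap (2.22%, against 1.33% of all spleen probes). It read 4.44, 4.59, 4.71 and 4.73 in mutant spleens and 4.77, 4.93, 4.90 and 4.83 in control spleens (-0.24, SE 0.12, limma adjusted p = 1.00), detected on 2 of 4 mutant and 4 of 4 control arrays. Mutants 1 and 2, whose spleens held pancreas transcripts, were the lowest, and without them the difference was -0.13. Sv2b (-0.27), Vamp2 (-0.19), Stx3 (-0.16) and Nsf (-0.12) followed on the lower side, and Vamp5 (0.27), Syt9 (0.27), Napa (0.18), Snap29 (0.14) and the Stx8 probe ILMN_2754479 (0.14) on the higher side, with overlapping groups and limma adjusted p = 1.00 for each. Without mutants 1 and 2 Snap29 turned to -0.014, Stx3 stood at -0.03, Nsf at -0.05 and the Stx8 probe ILMN_2754479 at 0.05. Napa stood at 0.14 and Sv2b at -0.20 in that fit, while Vamp2 (-0.21), Vamp5 (0.35) and Syt9 (0.37) lay further from 0 than before. Spleen-high Vamp8 differed by 0.08 (interval -0.17 to 0.33). Probes of Stx8 (-0.14 to 0.16) and Stxbp4 (-0.09 to 0.11) differed in sign. Without mutants 1 and 2 the Stx8 probe ILMN_3141830 read -0.04 and both Stxbp4 probes were above 0, at 0.02 and 0.21.

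Whether a mutant difference differed between tissues was tested by interaction contrasts over all 24 arrays, and 0 of 67 member probes passed in any of the 3 (limma, at most 0.00573% of all probes in either direction). At an unadjusted p under 0.05 there were 2 member probes for brain against testis (2.99%, against 3.66% of all probes), 6 for brain against spleen (8.96%, against 4.93%) and 5 for testis against spleen (7.46%, against 5.21%). The smallest p for brain against testis belonged to the Syt12 probe ILMN_2943868 (-0.24, SE 0.11) and to Stx18 (0.34, SE 0.16), both with limma adjusted p = 0.999. Against spleen, Napb gave 0.44 (SE 0.16) and Syt9 -0.51 (SE 0.18) in brain, and 0.45 and -0.54 in testis, with limma adjusted p between 0.652 and 0.870. The pairs of contrasts share the spleen arrays.

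Other genes of the pathway were read from 4 lists, each gene by its brightest detected probe. Active zone scaffolds had 13 genes measured in brain, vesicle transporters and Rab proteins 17, endocytosis 19 and trafficking SNAREs with their partners 19. In brain, testis and spleen 0 of the genes in these lists passed at that probe. Smallest in p in brain were Dnm1, the dynamin that cuts endocytic vesicles free (0.62, SE 0.14, limma adjusted p = 0.135), and Sh3gl3 (-0.33) for endocytosis, Slc17a7, the vesicular glutamate transporter (-0.36, SE 0.11, limma adjusted p = 0.255), and Syngr2 (0.23) for transport. Doc2b (-0.22) and Ppfia3 (-0.19) led the active zone list, which had 3 of 13 genes above 0 and a median of -0.09, and Sytl1 (0.36) and Sec22c (-0.22) the trafficking list. Another probe of Sh3gl2, an endophilin of vesicle endocytosis, was 1 of the 4 brain probes past the threshold: ILMN_2701695 averaged 8.50 ± 0.13 in mutants and 7.89 ± 0.05 in controls (SD, n = 4 each). Mutants were thus 0.61 higher (SE 0.08, with limma adjusted p = 0.0442). Probe ILMN_2701701 of Sh3gl2 gave a similar difference, 0.60 (SE 0.09), but did not pass the threshold (limma adjusted p = 0.0668). The Sh3gl2 probe used for the list, ILMN_1251416, gave 0.01 (SE 0.07). The vesicle transport list had 10 of 17 genes above 0 in brain (median 0.02), endocytosis 9 of 19 (-0.04) and the trafficking SNAREs 11 of 19 (0.01). Over all probes, 6730 of 14027 lay above 0 in brain, 6585 of 13152 in testis and 6021 of 12449 in spleen. In testis, genes above 0 numbered 2 of 5 for the active zone, 7 of 12 for transport, 9 of 18 for endocytosis and 10 of 19 for trafficking SNAREs, and in spleen 2 of 4, 3 of 10, 6 of 13 and 12 of 20, with medians between -0.05 and 0.02. In testis the smallest p belonged to Cask and Doc2b, Slc17a8 and Syngr2, Cltb and Clta, and Sytl4 and Bet1, with differences between -0.33 and 0.24. In spleen they were Rims3 and Unc13d, Dnajc5 and Scamp5, Dab2 and Cltb, and Sytl1 and Gosr1, between -0.19 and 0.17, and each had limma adjusted p = 1.00 in both tissues.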

How the data were processed

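Total RNA of 24 organs (brain, testis and spleen, 4 mutants and 4 controls each) was measured on Illumina MouseRef-8 bead arrays, 1 animal per array, per the labels. The authors deposited, per the file headers, linear intensity values and a detection p-value per probe. Some intensities lie below 0, as after background subtraction. They also deposited a table of normalized intensity values whose method is not given in the sources used here. GenomeStudio 2011.1 is named in the submitters' processing notes.

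Intensities were corrected and quantile normalized with neqc of limma 3.58.1 (R 4.3.3, offset 16), on the 8 arrays of a tissue for mutant against control and on all 24 for tissues and interactions. Probes with detection p under 0.05 on at least 4 of the 8 arrays of the tissue (or of at least 1 tissue) were tested by lmFit and eBayes. Benjamini-Hochberg adjustment ran over all such probes (13152 in testis, 12449 in spleen, 14027 in brain, 17438 jointly), and 0.05 was the threshold. Values near the floor are compressed, so differences of dim probes are understated. Symbols came from the platform annotation, which gave one to 23978 of the 25697 probes. Replicates of a group correlated at 0.971 to 0.996. The number of arrays limits the precision. The fits were tested on simulated data. The members, gene lists and tests were chosen with earlier results of these data known.

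In each tissue the text names the 5 higher and 5 lower member probes with the smallest p, in interactions the 2 smallest, and of each pathway list the 2 smallest per tissue, by a rule set in writing with the tests. Other members are named from the tissue comparison, where all detected ones are described. Same-numbered mutants and controls share only a number (correlation of deviations -0.38 to 0.28), whereas testis and spleen pair by animal, from the mouse identifiers (-0.01 to 0.14 over the 8 animals, estimated block correlation 0.00938). Alternatives were other normalizations, filters and eBayes settings, wild-type controls only, replicate and animal blocks, array brightness as a covariate, and leaving out arrays.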

Additional observations from a re-analysis of the deposited data

Results flagged for a closer look

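In 17 of 298 groups of 4 animals, 1 animal stood apart from the other 3 by more than Dixon's 95% limit on the gap as a share of the range. Chance gives this in about 1 in 20 groups. Values are log2 intensities normalized within the tissue. Brain mutant 4 accounted for 4 of them: the Syt11 probe ILMN_1233402 at 13.96 against 13.91 in the other mutants, the Syt11 probe ILMN_3063644 at 8.11 against 8.69 to 8.78, Stx4a at 7.95 against 7.40 to 7.49, and Syt4 at 11.82 against 12.10 to 12.14. At the Syt11 probe ILMN_1233402 the other 3 mutants had the same value, so any different value would have been flagged there. Brain mutant 1 had Stxbp2 at 8.95 and the Vamp1 probe ILMN_3137767 at 5.23, both above the others. Brain mutant 3 had the Syt12 probe ILMN_2943868 at 5.02, above the others. Among control brains, Snap91 stood high in control 2 (6.65) and the Stx8 probe ILMN_2754479 low in control 3 (8.58).

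Spleen mutant 1 had Syp at 5.63 against 6.47 or more in the other mutants and Stx12 at 7.85 against 8.50 to 8.59, and its pancreas markers were the highest of the spleens. The part of the pancreas transcripts in these values was not tested. Spleen mutant 3 had the Napa probe ILMN_1216812 at 5.23, above the others. In testis, mutant 3 had Stx7 at 7.91, above the others, and mutant 1 the Stx8 probe ILMN_3064056 at 5.05, below them. Testis control 3 was low for Nsf (6.66) and Stx6 (5.09), and control 1 high for Vamp2 (7.07).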

How the results depend on the processing

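No member probe passed the threshold between mutants and controls in any tissue, or in any interaction, under any alternative run, leaving out each array included (0 to 0). The count over all brain probes, 4, was less stable, at 0 to 3 with an array left out and 0 to 79 otherwise (79 with trend and robust eBayes, 32 normalized over all 24 arrays, 16 for probes detected on all 8 arrays). It was 0 with the replicate block, with which member counts stayed at 0, and same-numbered mutants and controls share only a number. Without its normexp correction testis had 1 call over all probes. The member median lay between -0.03 and 0.00 in brain, -0.01 and 0.01 in testis and -0.02 and 0.04 in spleen with an array left out. Median scaling gave -0.13 in brain, where all probes shifted by -0.10. Spleen Snap29 was -0.014 without mutants 1 and 2. The other members named for the smallest p kept their sign wherever they had a value. Among other values given, brain Vamp2 (-0.09), Syp (-0.06) and Stx8 ILMN_3064056 (-0.08) changed sign with array brightness as a covariate, and spleen Stx8 ILMN_3141830 (-0.04) and Stxbp4 ILMN_2788475 (0.02) without mutants 1 and 2.

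Between tissues, calls with an array left out numbered 60 to 61 for brain minus testis, 58 to 61 for brain minus spleen and 47 to 49 for testis minus spleen. With the animal as a replicate block they were 61, 61 and 49. Requiring detection in both tissues left 35, 39 and 32, as fewer probes were tested, and requiring a 2-fold difference left 22 for testis minus spleen. In mutant animals, an alternative chosen after seeing the data, 60, 61 and 42 of the calls made in controls were made again. Spleen Napb had no value under the deposited normalized values, nor brain Syt12 and spleen Napb and Syt9 among probes detected on all 8 arrays. Dim probes near background limit the folds to bounds.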
